A study of Mus musculus with 13 samples.

Results

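The platelet-derived growth factor (PDGF) family was followed through the mouse liver during a cholestatic diet and after its withdrawal. The family comprised the genes of 4 ligands, Pdgfa, Pdgfb, Pdgfc and Pdgfd, and of 2 receptors, Pdgfra and Pdgfrb, that is 6 of the 55353 gene symbols in the files. The rule names the genes and uses no measured value, and all 6 were detected. Their unique molecular identifiers (UMIs, tags that count each captured RNA molecule once) were summed over barcodes with at least 1500 UMIs, separately for each library and each cell type defined by markers. On the GRCm38 build of the mouse genome, RefSeq places Pdgfa at chr5:138976014-139000792, Pdgfb at chr15:79995865-80024614, Pdgfc at chr3:81036416-81214040, Pdgfd at chr9:6168363-6534284 and Pdgfra at chr5:75151322-75198206.

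PDGF ligands are secreted dimers, and PDGF-C and PDGF-D are released in a latent form that proteases outside the cell have to cut. They bind 2 receptor tyrosine kinases, PDGFRα and PDGFRβ, which pair up upon binding and signal through adaptors, lipid kinases and phospholipase C until phosphatases reset them. In the liver, the receptors are textbook genes of mesenchymal cells, namely hepatic stellate cells and portal fibroblasts, for which PDGF is a mitogen and a chemoattractant. Biliary epithelial cells (BECs), endothelial cells and macrophages are known sources of ligands in injured liver.

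Liver cells of male C57BL/6J mice aged 6-12 weeks gave 13 libraries of droplet-based 3′ scRNA-seq. Injury was induced with chow to which DDC (3,5-diethoxycarbonyl-1,4-dihydrocollidine) was added at 0.1%, a porphyrinogenic agent that injures bile ducts and causes a ductular reaction. Mice on control chow were the steady state (D0, 2 libraries), D3 and D5 of the diet the onset (4 libraries), and D9, D19 and D25 the progression (6 libraries), with 1 library of each isolation protocol, A or B, per day. The 13th library, STOP, came from protocol B after DDC feeding until D18 and 7 days without it. Protocol A combined sorted live cells with Epcam+, Pdpn+, Cd45+ and Lyve-1+ cells, Cd31+ cells without Lyve-1 and retinoid-autofluorescent cells, whereas protocol B combined cells of a stellate cell preparation with sorted dendritic, Epcam+ and Cd3e+ Lyve-1- cells. Because of these sorts, shares of cells do not describe the intact liver, and the libraries of 1 protocol are the like ones. The B library of D19 carries day 18 in its label. The labels do not tie mice to libraries, so p-values measure the spread between libraries, which need not be separate animals.

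Libraries held between 29307190 and 108602421 UMIs, and 95563 barcodes passed as cells, 1541 to 14764 per library. Any pair of libraries shared at most 49 cell barcodes and at most 0.519% of the smaller library's cells. The 66 clusters of cells gave 18 types named from markers, while 17.2% of the atlas cells stayed unnamed. Levels are given as CPM, the UMIs of a gene per 1000000 UMIs of a type in a library, for libraries with at least 20 cells of the type. Fewer transcribing cells and less RNA per cell cannot be told apart in such sums. Being counts of 3′ tags, they were not compared between genes. Of the 4 types compared over time, BEC-like cells numbered 4977, cells like liver sinusoidal endothelium (LSEC-like) 21028, macrophage-like cells 11446 and fibroblast-like cells 1313. In each library their own markers summed to 8662-15444, 13784-26673, 11709-24264 and 14614-30042 CPM, respectively, with at most 1 marker of a list at 0. Only D0 A had enough BEC-like and fibroblast-like cells at steady state, since D0 B held 2 BEC-like cells and 0 fibroblast-like ones.

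The largest shares of ligand and receptor UMIs lay in different cell types. BEC-like cells made up 5.29% of the atlas cells and 11.3% of their UMIs of all genes, and held 44.4% of all Pdgfa, 26.8% of Pdgfb, 51.2% of Pdgfc and 45.5% of Pdgfd UMIs. Fibroblast-like cells, 1.03% of the atlas cells with 1.42% of the UMIs of all genes, held 75.6% of the Pdgfra and 73.1% of the Pdgfrb UMIs. Macrophage-like cells (12.8% of cells, 18.5% of UMIs) held 34.5% of Pdgfc and 19.97% of Pdgfb, and LSEC-like cells (23.3% of cells, 18.2% of UMIs) 26.1% of Pdgfd and 17.1% of Pdgfb. As types were drawn from the same cells, these differences are descriptions with no test.

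For each ligand, the highest mean over the atlas libraries was found in BEC-like cells (9 libraries), although the types were not represented by the same libraries. Pdgfa, which encodes the ligand of PDGFRα, amounted to 119 ± 34.1 CPM in BEC-like cells (mean ± SD), followed by 95.3 ± 49.0 in fibroblast-like (n = 6), 81.3 ± 32.1 in mesothelial-like (n = 6) and 67.6 ± 29.8 in lymphatic endothelial-like cells (n = 5). Pdgfb, the ligand that endothelium uses to recruit mural cells, reached 71.9 ± 17.9 CPM in BEC-like, 64.0 ± 31.9 in vascular endothelial-like (n = 10), 45.9 ± 12.8 in lymphatic endothelial-like, 39.7 ± 19 in macrophage-like (n = 12) and 28.6 ± 10.4 in LSEC-like cells (n = 12). In both orders, each of these types overlapped with its neighbour. In D0 A alone, Pdgfb of BEC-like cells (47.9 CPM) lay below that of macrophage-like (85.8), vascular endothelial-like (58.0) and lymphatic endothelial-like cells (53.0 CPM), among others. In fibroblast-like cells Pdgfb was at 2.55 ± 2.20 CPM, below the 7.41 to 44.5 CPM among barcodes with under 100 UMIs, which mainly carry free RNA.

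The latent ligands had other types below BEC-like cells. Pdgfc averaged 64.9 ± 51.9 CPM in BEC-like, 24.2 ± 9.91 in macrophage-like and 13.7 ± 9.58 in fibroblast-like cells, against 0.469 CPM in LSEC-like cells and 0.926-27.7 CPM in free RNA. Pdgfd was at 62.1 ± 22.4 CPM in BEC-like cells, followed by vascular endothelial-like cells at 31.4 ± 4.26 CPM, whose range lay just below that of BEC-like cells. Mesothelial-like cells followed with 25.6, LSEC-like cells with 22.7 ± 4.14 and fibroblast-like cells with 19.5 ± 7.86 CPM, and the ranges of these neighbours overlapped. In D9 A, mesothelial-like cells exceeded BEC-like cells (46.5 against 39.1 CPM).

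**Figure D1:**
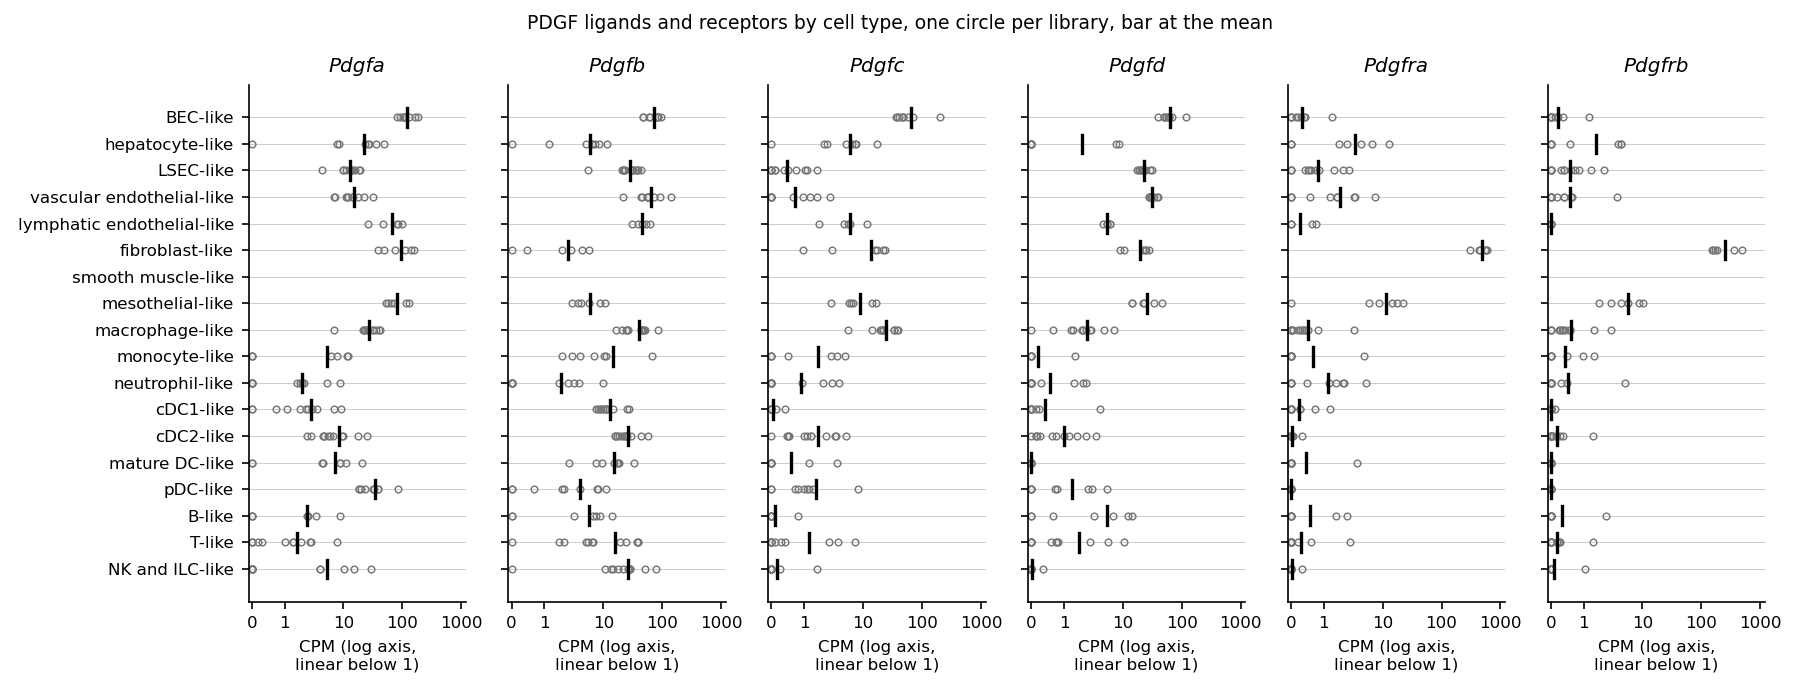
Level of each ligand and receptor by cell type in CPM of summed UMIs (log axis, linear below 1), with a circle for each atlas library that had at least 20 cells of the type and a bar at the mean. Over all stages, BEC-like cells have the highest mean for the 4 ligands, at 119, 71.9, 64.9 and 62.1 CPM, although not for Pdgfb at D0, and fibroblast-like cells stand apart for both receptors, whereas smooth muscle-like cells reached 20 cells in no atlas library.

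Receptor transcripts were nearly confined to fibroblast-like cells among the named types with at least 20 cells in an atlas library. Pdgfra was at 482 ± 106 CPM there (302-585, n = 6), followed by mesothelial-like cells at 11.4 ± 8.17 CPM, and no other type had a mean above 3.46 CPM. Pdgfrb amounted to 250 ± 137 CPM (150-482) in fibroblast-like and 5.67 ± 3.32 CPM in mesothelial-like cells, with a mean of at most 1.63 CPM elsewhere. For both receptors the fibroblast-like libraries did not overlap with those of any other of these types. Smooth muscle-like cells were left out, as they reached 20 cells in no atlas library. Their 92 atlas cells, 0.106% of all, held 1.51% of the Pdgfrb and 0.583% of the Pdgfra UMIs. Free RNA held up to 20.7 CPM of Pdgfra and 36.6 CPM of Pdgfrb, and the levels in BEC-like, LSEC-like and macrophage-like cells cannot be told apart from it. Unnamed cells held 17.8% of Pdgfra and 19.6% of Pdgfrb UMIs. They include subclusters of the fibroblast-like clusters that were set aside because they carried markers of another type.

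The receptors showed no call over the diet in fibroblast-like cells, and Pdgfrb was higher in every library of protocol B than in those of protocol A. Pdgfra was at 543 CPM in D0 A, 564 in D5 B, 585 in D9 A, 438 in D19 A, 458 in D25 A, 302 in D25 B and 309 in STOP. The libraries of the diet thus lay on both sides of D0 A, and the low values were those of D25 B and STOP. Pdgfrb was at 186 CPM in D0 A, 353 in D5 B, 150 in D9 A, 173 in D19 A, 155 in D25 A, 482 in D25 B and 445 in STOP. The 4 libraries of protocol A (150-186 CPM) all lay below the 3 of protocol B (353-482 CPM), so that the days of 1 protocol differed less than the protocols did.

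For DDC against D0, the fit with protocol as a term gave 0.50 ± 0.50 on the log2 scale (SE, adjusted p = 0.839) for Pdgfra and -0.27 ± 0.43 (adjusted p = 0.908) for Pdgfrb in fibroblast-like cells. Without the protocol term, the latter turned to 0.76. For progression against onset, it gave -0.82 ± 0.53 (adjusted p = 0.877) and 0.53 ± 0.46 (adjusted p = 0.900). In neither comparison did edgeR call any of the 5 family members tested, and 0.00% of the 10486 genes were called either way. At an unadjusted p under 0.05 there were 693 and 623 genes, none of them a member, and DESeq2 called 23 and 17, again no member. With 1 library each at D0 and at onset, these comparisons rest on few cells, 278 in D0 A and 23 in D5 B. Without the protocol term, the log2 fold change of Pdgfra was 0.014 against D0 and -0.18 between stages.

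By CPM, the receptors differed in opposite ways between stellate-like and portal fibroblast-like cells. In stellate-like cells, named from genes such as Lrat and Reln, Pdgfra was at 277 CPM in D0 A, 287 in D25 B and 271 in STOP. In portal fibroblast-like cells it was at 573 CPM in D0 A, 496 in D9 A, 447 in D19 A, 404 in D25 B and 325 in STOP, so that portal fibroblast-like cells were the higher of the pair in each of the 3 libraries that had both. By CPM, Pdgfrb was the other way round in the same 3 libraries. Stellate-like cells had 229 against 188 CPM in D0 A, 534 against 313 in D25 B and 461 against 386 in STOP. The values of D0 A rest on 135 UMIs in 70 stellate-like cells and 169 UMIs in 136 portal fibroblast-like cells. With cells of D0 A thinned to the same number of UMIs, the order was reversed. A Pdgfrb UMI was then detected in 24.3% of stellate-like and 28.7% of portal fibroblast-like cells. Within either subset, the Pdgfrb values of D25 B and STOP, both of protocol B, exceeded that of D0 A, while portal fibroblast-like cells of D9 A (125 CPM) and D19 A (139 CPM), of protocol A, lay below it. A stellate-like subcluster of 73 cells came to 95.9% from D0 A, and the other, of 221 cells, to 60.2% from STOP. The stellate-like cells of D0 A and STOP thus lay mostly in different subclusters. The fibroblast-like cells that the markers did not split, with 367 cells the largest subset in the atlas, had the highest Pdgfra in D0 A (749.9 CPM) and D9 A (837 CPM), but were at 292 CPM in D25 B, and their Pdgfrb was at 143, 147 and 494 CPM in these libraries. This subset joined subclusters that differed in their libraries. A subcluster of 184 cells came to 81.5% from D25 B, and another of 124 cells to 46.8% from D0 A. These are subclusters of the same cells, so the differences carry no test.

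**Figure D2:**
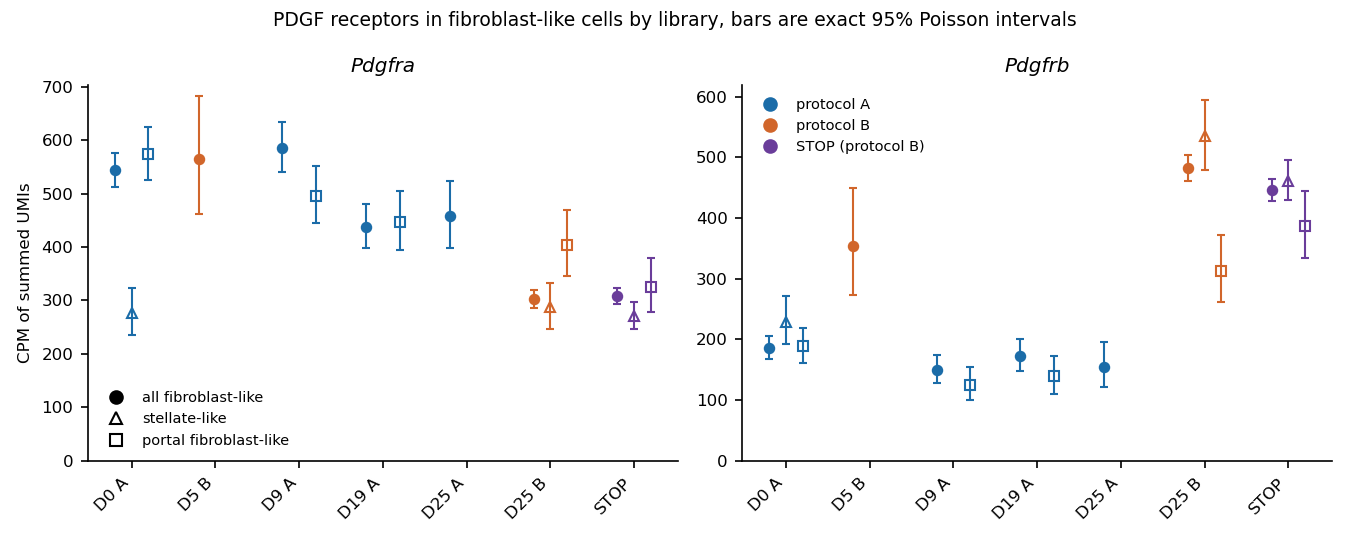
CPM of Pdgfra and Pdgfrb in fibroblast-like cells by library, for all cells (filled circles) and for stellate-like (triangles) and portal fibroblast-like cells (squares), with exact 95% Poisson intervals, which cover counting error only. Pdgfrb lies between 150 and 186 CPM in the libraries of protocol A and between 353 and 482 CPM in those of protocol B, STOP included.

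Transcripts of both receptors were found in the same fibroblast-like cells. Both were detected in 54.0% of cells in D0 A, 65.2% in D5 B, 41.7% in D9 A, 62.4% in D19 A, 73.5% in D25 A, 89.1% in D25 B and 90.9% in STOP, and neither in 0.718% to 8.70%. The median depth ranged from 6342 UMIs per cell in D9 A to 13525 in D25 B. With each cell thinned to 1500 UMIs, Pdgfra was detected in 34.3% to 65.2% and Pdgfrb in 17.6% to 47.9% of cells, and both in 8.82% to 30.4%. In the same way, at most 0.258% of B-like or T-like cells, which should lack both receptors, had a UMI of either one.

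In BEC-like cells, receptors were at 0 to 1.38 CPM (Pdgfra) and 0 to 1.24 CPM (Pdgfrb) in the atlas. STOP had more, at 5.15 CPM of Pdgfra (26 UMIs) and 3.76 CPM of Pdgfrb (19 UMIs), each from 0.817% of 367 cells, while free RNA of STOP held 10.7 and 17.8 CPM. Fibroblast markers were also highest in STOP, at 303 CPM against 82.6-253 CPM in the atlas libraries, and their part in the result was not tested.

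Most BEC-like cells held ligand transcripts. Between 78.7% and 92.5% of cells per atlas library held a UMI of at least 1 ligand, and 6.90% to 19.1% held all 4, with D0 A at 92.0% and 19.1%. Pdgfc was called lower with DDC than in the 1 library of D0, a call lost in 6 of 14 alternatives, and no call was made for the other 3 ligands.

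Pdgfc, which encodes a latent ligand that signals mainly through PDGFRα, was at 201 CPM in D0 A. In the DDC libraries it was at 69.4 (D3 B), 40.5 (D5 B), 38.1 (D9 A), 46.2 (D9 B), 57.4 (D19 A), 48.1 (D19 B), 36.7 (D25 A) and 47.3 CPM (D25 B), and in STOP at 83.6 CPM. All 8 DDC libraries lay below D0 A, the only library of D0, with a mean of 47.9 ± 10.9 CPM. The share of all genes with this order is not given here. The log2 fold change of DDC against D0 was -1.90 ± 0.30 (SE, adjusted p = 0.0440), which was the only member called of 4 tested, where 0.241% of the 14960 genes were called either way and 0.180% lower. Within protocol A alone, D0 A was 4.55-fold above the mean of the DDC libraries. With cells thinned to 1500 UMIs, 23.3% of cells held a Pdgfc UMI in D0 A and 3.90% to 12.4% in the DDC libraries.

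The lower Pdgfc rests on 1 library at steady state, D0 A, with no replicate there, and its call is near the threshold. The fold change lay between -2.08 and -1.78 over 14 alternatives, of which 8 made the call. It was lost when cells were gated by markers without clusters (adjusted p = 0.0582) or when D9 A (0.101), D9 B (0.0584), D19 B (0.0991), D25 A (0.153) or D25 B (0.0656) was left out. Hepatocyte markers moved along with it in BEC-like cells, at 6168 CPM in D0 A and 1024 to 3952 CPM in the DDC libraries, and their part in the result was not tested. Hepatocyte-like cells held 0 to 17.1 CPM of Pdgfc. In free RNA, Pdgfc was at 27.7 CPM in D0 A, the highest of all libraries.

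Pdgfd, the latent ligand of PDGFRβ, was at 117 CPM in D0 A, 69.4 in D3 B, 59.0 in D5 B, 39.1 in D9 A, 49.6 in D9 B, 61.4 in D19 A, 54.1 in D19 B, 49.1 in D25 A, 59.95 in D25 B and 81.8 in STOP. Each DDC library lay below D0 A, the only library of D0, but the log2 fold change of -0.91 ± 0.27 did not pass after adjustment (adjusted p = 0.142). For Pdgfa, the values were 183 CPM in D0 A and 166, 111, 90.6, 105, 82.1, 101, 107 and 131 CPM in the DDC libraries in the same order. They gave -0.58 ± 0.31 (adjusted p = 0.341), and D3 B was close to D0 A.

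Pdgfb did not share this order. It was at 47.9 CPM in D0 A and 47.0 in D3 B, at 85.0 in D5 B, 63.1 in D9 A, 60.2 in D9 B, 97.0 in D19 A, 80.4 in D19 B, 82.2 in D25 A and 84.8 in D25 B, and was lowest in STOP, at 39.2 CPM. The log2 fold change of DDC against D0 was 0.89 ± 0.41 (adjusted p = 0.279), and the groups overlapped through D3 B.

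**Figure D3:**
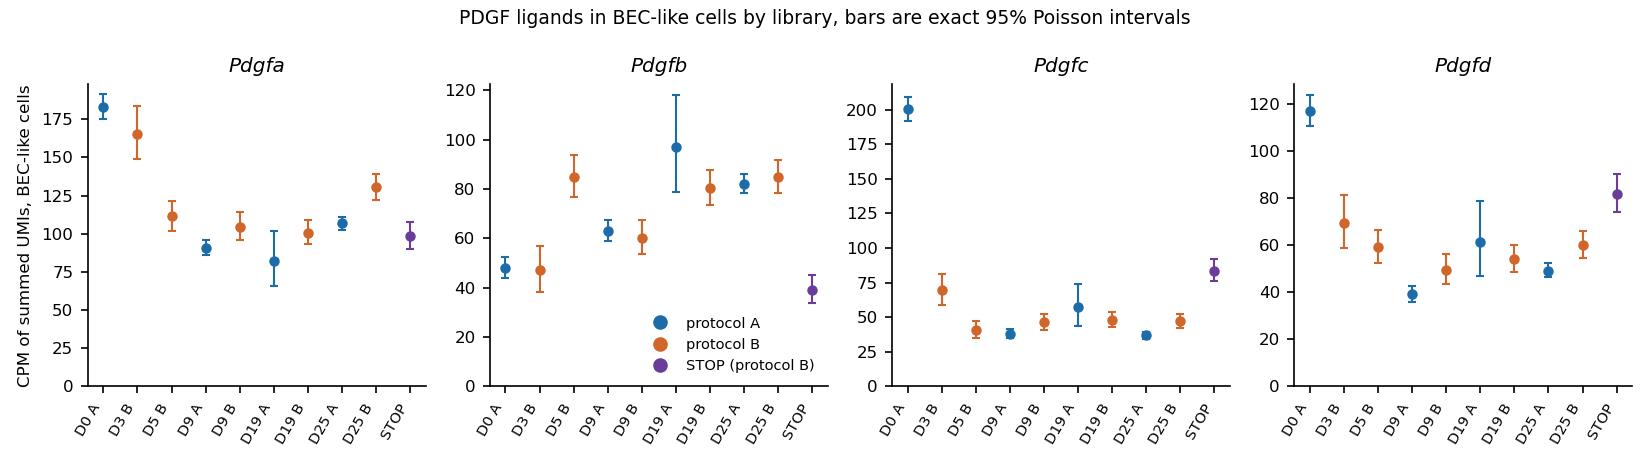
CPM of the 4 ligands in BEC-like cells for each library with at least 20 of them (points, coloured by protocol), with exact 95% Poisson intervals. Pdgfc stands at 201 CPM in D0 A and between 36.7 and 69.4 CPM in the 8 DDC libraries, and Pdgfb is lowest in STOP at 39.2 CPM.

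Between onset and progression no ligand was called in BEC-like cells. Their onset was D3 B and D5 B, both of protocol B, and their D0 was D0 A, of protocol A. In both comparisons the protocol term thus rests on the libraries of progression. The log2 fold changes between these stages were -0.34 for Pdgfa, 0.10 for Pdgfb, -0.25 for Pdgfc and -0.28 for Pdgfd, with adjusted p between 0.926 and 0.994. edgeR called 0 of these 4 members and 0.00% of the 14960 genes, of which 812 had an unadjusted p under 0.05 without any member among them. DESeq2 called 13 genes and no member.

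BEC-like cells fell into 6 clusters, which differed in their ligands. A cluster led by Cxcl5, a neutrophil chemoattractant, had 90.5 CPM of Pdgfb in D0 A and 78.3 to 142 CPM in the DDC libraries, against 26.1 CPM and 6.27 to 25.5 CPM in a cluster led by the mucosal genes Dmbt1 and Spink4. A cluster led by Ces1d had 572 cells, of which 95.3% came from D0 A, where BEC-like cells of all clusters numbered 785. Its hepatocyte markers summed to 6878 CPM, against 873 to 1842 CPM in the other clusters. Its part in the Pdgfc call of BEC-like cells was not tested. Within D0 A it had 194 CPM of Pdgfa, beside 195 CPM in the Cxcl5 cluster, and 129 CPM of Pdgfd, beside 44.2 to 110 CPM in the other clusters. The other clusters were led by Gng13 with the tuft cell genes Dclk1 and Trpm5, by Ddit4l, and by the mitotic genes Cenpf and Cdc20. In the Ddit4l cluster, 50% of cells were called doublets by Scrublet, and LSEC markers summed to 4741 CPM.

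Pdgfc was higher in D0 A than in DDC libraries within clusters too. In the Cxcl5 cluster it was at 197 CPM in D0 A, between 42.5 and 78.3 CPM in the DDC libraries and at 111 CPM in STOP. In the Gng13 cluster it was at 144 CPM against 15.1-96.6 CPM, and in the Ddit4l cluster at 173 CPM against 32.8-70.8 CPM, with STOP at 77.5 CPM. The Dmbt1 cluster was the exception, where D0 A (55.5 CPM) lay within the DDC libraries (1.83-56.6 CPM). The Ces1d cluster, at 224 CPM in D0 A, had no DDC library with 20 cells, and the mitotic cluster, at 15.8-50.1 CPM, had fewer than 20 cells at D0. Clusters were made from variable genes of these same cells, with the members and other listed pathway genes left out, and no test was attached.

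**Figure D4:**
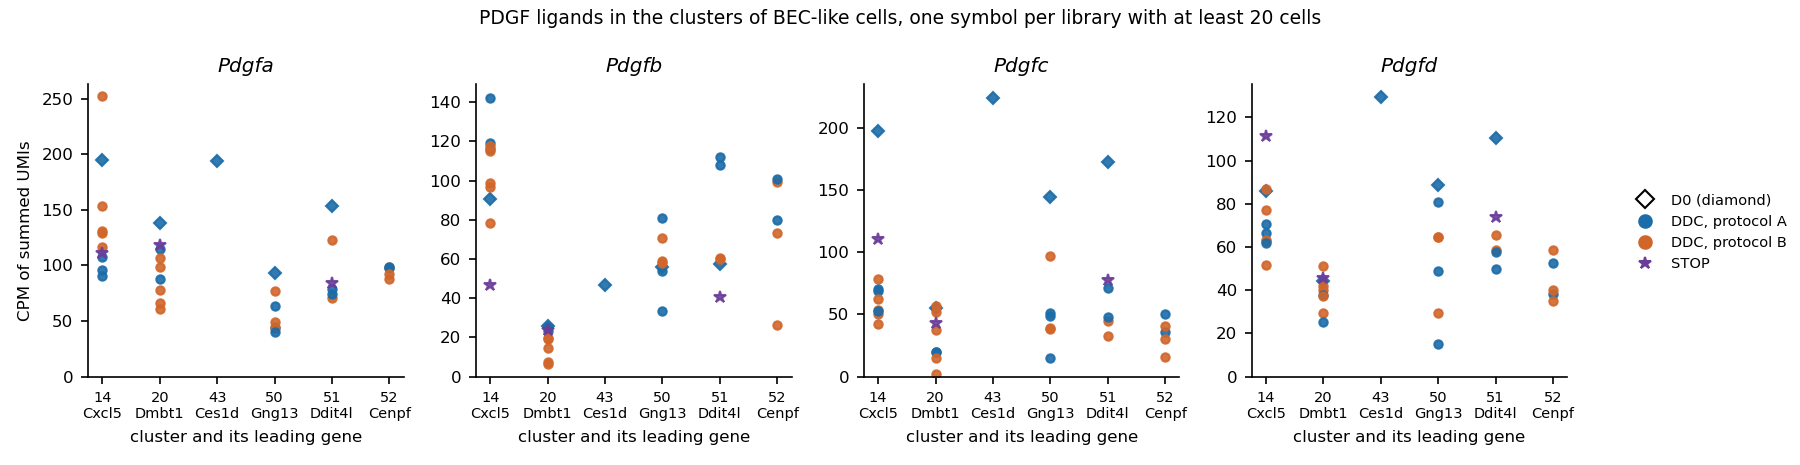
CPM of the 4 ligands in the 6 clusters of BEC-like cells, named by number and leading gene, for each library with at least 20 cells of the cluster (diamonds for D0 A, circles for DDC libraries, stars for STOP). Pdgfc is higher in D0 A than in every DDC library in the clusters led by Cxcl5, Gng13 and Ddit4l, but not in that led by Dmbt1 (55.5 CPM against 1.83-56.6 CPM), and Pdgfb is low throughout the Dmbt1 cluster.

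Macrophage-like cells held Pdgfa, Pdgfb and Pdgfc, none of which was called. In unscaled CPM, Pdgfb was highest at D0, and Pdgfc was lower at onset than at D0 in every library. Pdgfb, through which macrophages are known to act on stellate cells, was at 85.8 CPM in D0 A and 51.4 CPM in D0 B, the latter from 15 UMIs in 62 cells. At onset it was at 46.4 CPM in D3 A, 43.1 in D3 B, 45.8 in D5 A and 43.1 in D5 B, and in progression between 16.4 and 48.5 CPM with a median of 24.8 CPM. In unscaled CPM, all 10 DDC libraries thus lay below both D0 libraries, and the 6 of progression lay below those of onset except D9 A, at 48.5 CPM. Scaled by edgeR's TMM factors, as in the fit, D0 B (48.8 CPM) lay below D3 A (52.4 CPM) and D9 A (49.2 CPM). D9 A also had the most Pdgfb in free RNA, at 44.5 CPM against 7.41 to 34.99 CPM in the other libraries, the part of which was not tested. The log2 fold changes were -0.82 ± 0.32 (adjusted p = 0.133) for DDC against D0 and -0.72 ± 0.24 (adjusted p = 0.163) for progression against onset, so that neither passed the test.

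These calls changed with the libraries and settings. Without D9 A, edgeR called Pdgfb in both comparisons (-1.02, adjusted p = 0.0126, and -1.00, adjusted p = 0.00735), while without D0 A the change against D0 was -0.48 (adjusted p = 0.776). The change against D0 was also called with no filter (adjusted p = 0.0221), with the marker gate (-1.38, adjusted p = 0.0161) and in macrophage-like cells other than Kupffer-like ones (-1.63, adjusted p = 0.0433), and that between stages with no filter (adjusted p = 0.00455). Over all alternatives, the change against D0 lay between -1.63 and -0.48 and that between stages between -1.00 and -0.51.

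Macrophage-like cells were divided into Kupffer-like cells, with markers of resident macrophages such as Clec4f and Timd4, and the other macrophage-like cells, led by Gpnmb and Trem2. Kupffer-like cells were 474 of 619 macrophage-like cells at D0, 4605 of 10557 with DDC and 3378 of 8527 in progression, and the part of this shift in the values of the whole type was not tested. Pdgfb was at 69.6 CPM (D0 A) and 48.3 CPM (D0 B) in Kupffer-like cells, at 28.0-50.05 CPM in onset and at 18.6-48.0 CPM in progression. In the other macrophage-like cells it was at 161 and 53.6 CPM at D0, at 37.5-48.6 CPM in onset and at 14.0-49.0 CPM in progression, so that the lowest values of either subset were in progression. Platelets are a known source of PDGF, and their markers summed in macrophage-like cells to 213 and 411 CPM at D0, 113-432 CPM in onset and 367-756 CPM in progression, and their part in the result was not tested.

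Pdgfc in macrophage-like cells was at 39.1 CPM in D0 A, 37.7 in D0 B, 20.1 in D3 A, 5.59 in D3 B, 22.1 in D5 A and 14.4 in D5 B. In progression it was at 22.0 (D9 A), 21.9 (D9 B), 33.2 (D19 A), 22.0 (D19 B), 33.8 (D25 A) and 19.1 CPM (D25 B). Over the whole type, both D0 libraries lay above all DDC libraries in unscaled CPM, and 4 of the 6 libraries of progression (D9 A, D9 B, D19 B and D25 B) lay within the range of onset. Scaled by TMM factors, as in the fit, D0 A (32.6 CPM) lay below D19 A (33.5 CPM) and D25 A (35.7 CPM), and D0 B was at 35.8 CPM. The log2 fold changes of -0.60 ± 0.33 against D0 (adjusted p = 0.289) and 0.73 ± 0.23 between stages (adjusted p = 0.147) did not pass. The change against D0 was -1.14 without D0 A and -0.38 without D0 B. That between stages was 1.40 in the other macrophage-like cells alone and 0.79 in Kupffer-like cells alone. Kupffer-like cells had more Pdgfc than the other macrophage-like cells, with 34.1 ± 14.5 against 15.2 ± 8.57 CPM over the atlas libraries. Within Kupffer-like cells, Pdgfc was at 40.3 CPM in D0 A, inside the range of the DDC libraries (7.96-47.4 CPM), and at 64.5 CPM in D0 B, above it.

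**Figure D5:**
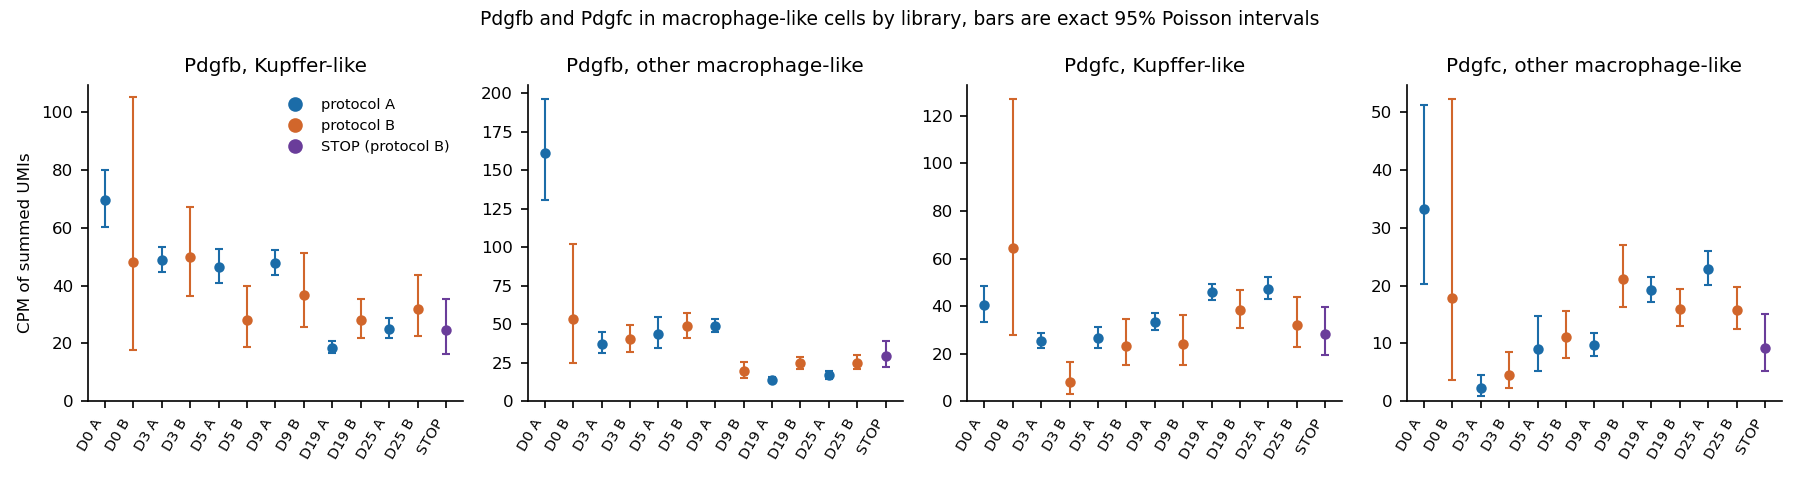
CPM of Pdgfb and Pdgfc in Kupffer-like and in other macrophage-like cells by library, coloured by protocol, with exact 95% Poisson intervals. Pdgfb in other macrophage-like cells is at 161 CPM in D0 A, 53.6 CPM in D0 B and 14.0-49.0 CPM in progression, and the intervals of D0 B are wide because that library held 62 macrophage-like cells.

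Pdgfa in macrophage-like cells was at 22.0 CPM in D0 A, at 6.85 CPM in D0 B (2 UMIs), between 21.5 and 41.4 CPM in the DDC libraries and at 56.5 CPM in STOP. Free RNA held more at D0, with 27.9 CPM in D0 A and 7.41 CPM in D0 B, and 10.3 to 33.4 CPM in the DDC libraries. The log2 fold change of Pdgfa against D0 of 0.78 ± 0.34 did not pass (adjusted p = 0.179), and the alternatives ranged from -0.053 to 2.45. In the DDC libraries Pdgfa was higher in the other macrophage-like cells (37.9 ± 7.97 CPM) than in Kupffer-like cells (18.1 ± 4.51 CPM), and in Kupffer-like cells alone its log2 fold change against D0 was -0.053. Pdgfd was low, at 0 to 7.08 CPM. Of the clusters of macrophage-like cells, a Kupffer-like one held 8.67 CPM of Pdgfd and the other 4 between 0.430 and 2.10 CPM, and in that cluster 43.0% of cells were called doublets and LSEC markers summed to 6389 CPM.

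No member was called in macrophage-like cells in either comparison, although 6.90% of the 12470 genes were called for DDC against D0 and 0.810% for progression against onset. Of the 4 members tested, 2 had an unadjusted p under 0.05 in each comparison (Pdgfa and Pdgfb, and Pdgfb and Pdgfc), as had 2925 and 1915 of the 12470 genes, and DESeq2 called no member. Pdgfra, removed by the filter, was at 3.23 CPM in macrophage-like cells of D0 A (11 UMIs) and at 0 to 0.831 CPM with DDC, while free RNA of D0 A held 12.1 CPM. It was called lower with no filter (-3.16, adjusted p = 0.0112) and without D0 B (-3.56, adjusted p = 0.0295).

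Among endothelial cells, LSEC-like ones held Pdgfb and Pdgfd at levels near those of free RNA in several libraries. In LSEC-like cells, Pdgfb was at 21.4 CPM in D0 A and at 5.55 CPM in D0 B, from 6 UMIs in 453 cells. With DDC it was at 23.7 (D3 A), 39.1 (D3 B), 36.0 (D5 A), 20.4 (D5 B), 37.2 (D9 A), 43.8 (D9 B), 22.7 (D19 A), 31.6 (D19 B), 29.7 (D25 A) and 31.7 CPM (D25 B), and STOP was at 13.8 CPM. Within each protocol, the 5 DDC libraries all lay above D0, but across protocols D5 B lay below D0 A. Free RNA held 20.7 CPM of Pdgfb in D0 A, 7.41 in D0 B, 44.5 in D9 A, 34.99 in D25 A and 12.2 to 24.2 CPM in the other DDC libraries, so that it exceeded LSEC-like cells in D0 B, D9 A and D25 A. The log2 fold change of 1.10 ± 0.35 did not pass (adjusted p = 0.192). It was 2.45 (adjusted p = 0.0357) without D0 A and 0.66 (adjusted p = 0.248) without D0 B, and was called with no filter on low counts (1.18, adjusted p = 0.0154).

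Pdgfd in LSEC-like cells varied little, with 21.4 CPM in D0 A, 17.6 CPM in D0 B, 18.9 to 31.6 CPM in the DDC libraries and 21.8 CPM in STOP (log2 fold change 0.27, adjusted p = 0.656). Free RNA of Pdgfd was at 22.2 CPM in D0 A and 24.7 CPM in D25 A, above LSEC-like cells of both, and at 1.85 to 15.3 CPM in the other libraries. Pdgfa lay between 4.35 and 19.1 CPM (0.21, adjusted p = 0.878), within the 7.41 to 33.4 CPM of free RNA for most libraries. None of the 3 members tested was called in LSEC-like cells, against 0.362% of the 11607 genes for DDC against D0 and 0.0431% for progression against onset, where the fold changes of Pdgfa, Pdgfb and Pdgfd were 0.08, 0.15 and 0.03. Pdgfb against D0 was the only one with an unadjusted p under 0.05, and DESeq2 called none. Hepatocyte markers in LSEC-like cells were at 990 CPM in D0 A and 119-376 CPM in the other libraries, and 97.5% of 1 LSEC-like cluster came from D0 A.

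Fibroblast-like cells also held ligand transcripts. Pdgfa was at 109 CPM in D0 A, 142 in D5 B, 74.4 in D9 A, 49.3 in D19 A, 39.3 in D25 A, 158 in D25 B and 183 in STOP, and the values of protocol A (39.3-109 CPM) again lay below those of protocol B. Portal fibroblast-like cells exceeded stellate-like cells in all 3 libraries with both, by 164 against 47.6 CPM in D0 A, 241 against 33.7 CPM in D25 B and 365 against 64.4 CPM in STOP. Pdgfd was between 8.85 and 27.6 CPM and Pdgfc between 0.956 and 23.6 CPM in the atlas. The log2 fold changes against D0 were -0.86 for Pdgfa, 1.38 for Pdgfc and 0.53 for Pdgfd, with adjusted p of 0.747, 0.804 and 0.876. Between stages they were 0.23, -3.86 and -0.17, with adjusted p of 0.959, 0.856 and 0.983. For Pdgfc the sign against D0 ran counter to the unscaled levels, since all 5 DDC libraries lay below D0 A. Scaled by TMM factors, as in the fit, D9 A (24.5 CPM) lay above D0 A (21.7 CPM) and the other DDC libraries below it. Without the protocol term, the fold change of Pdgfc between stages was -0.55. The 3 signs against D0 turned without that term, to 0.11 for Pdgfa, -0.80 for Pdgfc and -0.44 for Pdgfd. Onset was D5 B alone, with 3 UMIs of Pdgfc in 23 cells.

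After withdrawal of the diet, the STOP library was set beside D19 B, the nearest day of the same protocol, with exact 95% Poisson intervals and no test, as there is 1 library each. In BEC-like cells, Pdgfb was at 39.2 CPM (33.9-45.1) in STOP against 80.4 CPM (73.6-87.6) in D19 B. Pdgfc was at 83.6 (75.8-91.9) against 48.1 CPM (42.9-53.7) and Pdgfd at 81.8 (74.1-90.1) against 54.1 CPM (48.6-60.1), while the intervals of Pdgfa overlapped at 98.4 (90.0-107) and 101 CPM (93.1-109). For these first 3 ligands, STOP lay on the side of D19 B where D0 A was.

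In LSEC-like cells, Pdgfb was at 13.8 CPM (10.4-17.9) in STOP and 31.6 CPM (24.3-40.3) in D19 B. In macrophage-like cells, Pdgfa was at 56.5 CPM (48.2-65.9) against 31.8 CPM (28.3-35.7), and the intervals of Pdgfb overlapped (27.6 and 25.6 CPM). BEC-like cells of STOP held 3110 CPM of LSEC markers against 420-1172 CPM in the other libraries, the part of which in the result was not tested. Smooth muscle-like cells reached 20 cells in STOP only, where they had 261 CPM of Pdgfrb (28 UMIs), 55.9 CPM of Pdgfra and 559 CPM of Pdgfa (60 UMIs).

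Other genes of the pathway were read from 4 lists, namely 9 genes of ligand processing and binding, 14 of receptor-proximal signalling, 4 receptor phosphatases and 8 genes of mesenchymal activation. In BEC-like, LSEC-like and fibroblast-like cells, edgeR called none of the listed genes in either comparison. For DDC against D0 in BEC-like cells, their median log2 fold changes were 0.47, -0.09, 0.22 and -0.13 in this order, beside 0.02 over all genes. In LSEC-like cells they were 0.16, 0.07, 0.13 and -0.49, beside -0.01, and in fibroblast-like cells 0.33, -0.24, 0.13 and 0.38, beside -0.03. Between onset and progression, genes of mesenchymal activation had medians of 2.48 in BEC-like, 1.21 in LSEC-like and 1.12 in fibroblast-like cells, beside 0.01, 0.01 and 0.10 over all genes, without a call. Fibroblast markers summed to 82.6-303 CPM in BEC-like and 385-787 CPM in LSEC-like cells over all libraries, STOP included. Their part in these medians, and that of free RNA, was not tested. In macrophage-like cells the median of the mesenchymal activation genes was 0.48, beside -0.02 over all genes. Medians of the other lists between stages lay between -0.11 and 0.41 in the 4 types.

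In macrophage-like cells, 4 of the listed genes were called for DDC against D0 and none for progression against onset, and their levels are given as CPM scaled by edgeR's TMM factors. Of 7 processing and binding genes tested, 2 rose, where 3.40% of all genes were called higher. Sparc, a matrix protein that binds PDGF-B, had 48.8 and 141 CPM at D0 and 77.8-515 CPM with DDC (log2 fold change 1.41, adjusted p = 0.0188), and Furin, a proprotein convertase, had 48.8 and 58.8 CPM against 82.3-118 CPM (0.77, adjusted p = 0.0245). LSEC markers in macrophage-like cells, beside the Sparc call, summed to 1918 and 1503 CPM at D0 and 918 to 4942 CPM with DDC, and their part in the result was not tested. Of 7 mesenchymal activation genes tested, 2 fell, where 3.50% of all genes were called lower, namely Col1a2 (-3.02, adjusted p = 0.0147) and Col3a1 (-2.78, adjusted p = 0.0338), both fibrillar collagens. These were at 14.0 and 17.4 CPM in D0 A, at 0 in D0 B and at 0.256-4.57 and 0.582-17.2 CPM with DDC. Fibroblast markers in macrophage-like cells were at 348 CPM in D0 A and 72.0-266 CPM elsewhere, and their part in the result was not tested. The medians of the 4 lists were 0.41, 0.04, -0.15 and -1.96, beside 0.08 over all genes.

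Genes with the most similar pattern over 17 cell types were taken among 9990 genes by Pearson's r of log2(CPM + 1), which is a description, as types share libraries. Pdgfra and Pdgfrb were each other's nearest gene (r = 0.991), with Pcdh18 at 0.983 and 0.984. Des, the intermediate filament gene of stellate and muscle cells, was next for Pdgfra (0.980), and the mesenchymal transcription factor gene Prrx1 for Pdgfrb (0.987). Pdgfc was closest to Spp1 (osteopontin, 0.922), Pdgfd to Adgra3 (0.973), Pdgfa to Cnpy2 (0.901) and Pdgfb to Slc12a7 (0.823). Among members, Pdgfa and Pdgfc had an r of 0.806, and Pdgfb and Pdgfra one of -0.463.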

How the data were processed

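UMI counts of 13 libraries (10x Genomics 3′ chemistry) were used as deposited. The authors made these counts per gene and barcode with kallisto (version not given in the sources used here), and their processing notes name GRCm38. They were deposited without normalization or a filter on barcodes. The members and gene lists were chosen with earlier results of these data known.

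Barcodes with at least 1500 UMIs were kept. Leiden clustering at resolution 1.5 used log counts per 10000, 2000 variable genes, 40 principal components and 25 neighbours (scanpy 1.11.5, leidenalg 0.10.2). Mesenchymal cells were clustered again at resolution 1 with 30 components, and subclusters with markers of another type were moved to the unnamed cells. A type needed 3 markers, each detected in at least 10% of the cells of a cluster and 2-fold over the other cells. Doublets called by Scrublet (7.36% of cells) were kept, except in an alternative.

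Counts of a type were summed per library with at least 20 cells and tested with edgeR 4.0.16 (quasi-likelihood, TMM, filterByExpr, protocol as a term, R 4.3.3), with Benjamini-Hochberg adjustment over all genes at 0.05. STOP was left out of the fits. Of 32 tests of members, 1 was called and 7 had an unadjusted p under 0.05, as had 2748 of 14960 genes in BEC-like and 2925 of 12470 in macrophage-like cells for DDC against D0. The filter removed Pdgfb in fibroblast-like, Pdgfc in LSEC-like cells and both receptors outside fibroblast-like cells. Standard errors are the fold change divided by the square root of F. The tests were checked on simulated data, where the comparisons with 1 library at D0 (BEC-like and fibroblast-like cells) missed most changed genes and made false calls above the threshold rate, LSEC-like cells between stages exceeded that rate as well, and fibroblast-like cells recovered none between stages. Alternatives were DESeq2 1.42.0, no filter, no protocol term, at least 3000 UMIs, no doublets, a marker gate without clusters and leaving out each library, and, chosen after seeing the data, each protocol or macrophage subset alone. Poisson and binomial intervals (95%) cover counting error only. Named list genes are those called, up to 6 per comparison.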

Additional observations from a re-analysis of the deposited data

Results flagged for a closer look

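Of 36 groups of 4 to 10 libraries, 4 held a library that stood apart from the others, where chance gives about 1 in 20. The groups share libraries and some hold few UMIs, so the 4 are not independent and this rate is only a rough guide. Pdgfb in macrophage-like cells was at 48.5 CPM in D9 A and between 16.4 and 26.4 CPM in the other 5 libraries of progression. Pdgfrb in fibroblast-like cells was at 482 CPM in D25 B, the only library of protocol B in its group, and between 150 and 173 CPM in the others. In BEC-like cells of D25 B, Pdgfra was at 1.38 CPM (10 UMIs) against 0-0.409 CPM, and Pdgfrb at 1.24 CPM (9 UMIs) against 0-0.228 CPM in the other libraries of progression, and free RNA of both receptors was highest in this library, at 20.7 and 36.6 CPM.

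In 3 cases, every DDC library lay above the mean of D0 in 1 cell type and every one below it in another, and these differences were not tested. The share of all genes with such an order is not given here, and D0 was D0 A alone in BEC-like and fibroblast-like cells. The mean of Pdgfa with DDC minus D0 was -71.5 CPM in BEC-like cells and 15.4 CPM in macrophage-like cells, where the log2 fold change was -0.053 in Kupffer-like cells alone. Pdgfa of macrophage-like cells lay below free RNA in both D0 libraries. The mean of Pdgfb with DDC minus D0 was 18.1 CPM in LSEC-like cells, against -34.6 CPM in macrophage-like cells and -3.74 CPM in fibroblast-like cells. In fibroblast-like cells the filter removed Pdgfb. Its D0 level there was 5.67 CPM from 12 UMIs, below the 20.7 CPM in free RNA of D0 A.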

How the results depend on the processing

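Of 485 alternative log2 fold changes of members, 446 kept their direction and their side of the threshold, 6 lost and 9 gained a call, and 24, all uncalled, changed sign. The 6 lost calls were those of Pdgfc in BEC-like cells, and the gained ones were Pdgfb in LSEC-like cells (2) and in macrophage-like cells (6, of both comparisons) and Pdgfc in macrophage-like cells (1). Of 48 mean levels, 47 moved by less than 1 SD, and the marker gate brought Pdgfd in macrophage-like cells from 2.45 to 0.234 CPM. Depth limits BEC-like and fibroblast-like cells at D0 (1 library), and D0 B (62 macrophage-like cells). The isolation protocol is also the replicate number of the labels, so the fits hold it as a block. The causes of the differences below were not tested.

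Members called changed from 1 to 0 in BEC-like cells against D0 with the marker gate and to 0-1 without single libraries. They changed from 0 to 1 in LSEC-like cells against D0 with no filter, and to 0-1 without single libraries. In macrophage-like cells they changed from 0 against D0 to 2 with no filter, to 1 with the marker gate and to 1 in other macrophage-like cells alone, and between stages to 2 with no filter, and to 0-1 in either comparison without single libraries.

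Genes called in BEC-like cells against D0 changed from 36 to 481 with DESeq2, 1284 with no filter, 369 without the protocol term and 0-281 without single libraries, and between stages from 0 to 13, 255 (no filter) and 0-21. In LSEC-like cells against D0, 42 became 328 with DESeq2, 577 with no filter, 331 with protocol A alone, 69 with protocol B alone and 11-414 without single libraries, and between stages 5 became 65, 320, 40, 0 and 1-27, and 9 with at least 3000 UMIs per cell. In macrophage-like cells against D0, 861 became 1514 with no filter, 289 without the protocol term, 494 with the marker gate, 224 with protocol A alone, 25 with protocol B alone, 460 in other macrophage-like cells alone and 25-943 without single libraries. Between stages, 101 became 338 with DESeq2, 866 with no filter, 5 without the protocol term, 23 with doublets removed, 29 with the marker gate, 4 and 3 with protocol A or B alone, 7 in Kupffer-like cells alone, 45 in other macrophage-like cells alone and 9-445 without single libraries. In fibroblast-like cells, 0 became 23 with DESeq2, 112 with no filter and 0-32 without single libraries against D0, and 17, 84 and 0-1 between stages.

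Sign changes without a call were found in fibroblast-like cells without the protocol term, against D0 for Pdgfa (0.11), Pdgfc (-0.80), Pdgfd (-0.44) and Pdgfrb (0.76), and between stages for Pdgfa (-0.66), Pdgfd (1.10) and Pdgfrb (-0.43). In LSEC-like cells, Pdgfa turned to -0.32 against D0 and -0.077 between stages with protocol B alone, and between stages Pdgfb turned to -0.0064 and Pdgfd to -0.031 with protocol A alone and Pdgfd to -0.054 with the marker gate. In macrophage-like cells, Pdgfa turned to -0.053 against D0 and -0.0073 between stages in Kupffer-like cells alone and to -0.14 between stages with the marker gate, and Pdgfd between stages to 0.25 with doublets removed. Without single libraries, LSEC-like Pdgfa ranged from -0.27 to 0.58 against D0 and from -0.087 to 0.34 between stages, LSEC-like Pdgfd from -0.052 to 0.11, BEC-like Pdgfb from -0.29 to 0.68 and BEC-like Pdgfc from -0.55 to 0.10 between stages.

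Not run, for lack of libraries on 1 side, were fibroblast-like cells with at least 3000 UMIs, with doublets removed, without D5 B, without D25 B or by protocol, leaving out D0 A in BEC-like and fibroblast-like cells against D0, and BEC-like cells by protocol except between stages in protocol B.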
